A study of Homo sapiens with 3 samples.

Results

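MicroRNAs of HEK293 cells other than the miR-17-92 cluster were described from the deposited counts of 1 small RNA library. Members were all listed miRNAs except miR-17, miR-18a, miR-19a, miR-19b, miR-20a and miR-92a, which the miR-17-92 cluster encodes, and except miR-3607. This left 127 of 137 listed mature miRNAs, with 25633 of 60085 miRNA counts. HEK293 is an established human embryonic kidney line, grown here without any labelled treatment, and the 3 libraries of the series form 1 group. Of the per-sample columns of the miRNA table, 1 carries the title of a sample (library 1), and 2 match no sample title and were not used. All values below therefore come from library 1, have no replicate check and were not tested. Intervals are exact 95% binomial intervals and cover counting error only, since 1 library was used. They treat reads as independent, and no molecular identifiers were used to check this, so they may be too narrow.

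A miRNA is cut as a hairpin from a longer transcript by Drosha and then by Dicer. Of the resulting duplex 1 strand, from the 5′ arm (5p) or the 3′ arm (3p) of the hairpin, is kept by an Argonaute protein, and the other is mostly degraded. The bases near the 5′ end of the kept strand, the seed (bases 2 to 8), pair with target mRNAs, so miRNAs with 1 seed form a family. Many hairpins lie in groups on 1 transcript, and several of these groups have paralogous copies elsewhere in the genome.

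A mature sequence was found in the RefSeq table (GRCh38.p14) for 115 members. None was matched for miR-10b-5p, miR-151a-5p, miR-28-5p, miR-30b-5p, miR-30d-5p, miR-320a, miR-425-5p, miR-505-3p, miR-598-3p, miR-619-5p, miR-660-5p and miR-7641. The sequences of the leading families are shown because the families are defined by them. Capitals mark the seed, and members of 1 family share all 7 capitals.
miR-16-5p: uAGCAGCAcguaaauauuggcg
miR-15b-5p: uAGCAGCAcaucaugguuuaca
miR-15a-5p: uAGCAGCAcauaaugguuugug
miR-424-5p: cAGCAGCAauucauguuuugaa
miR-93-5p: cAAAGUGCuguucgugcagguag
miR-106b-5p: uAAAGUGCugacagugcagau
miR-106a-5p: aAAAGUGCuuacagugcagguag
miR-103a-3p: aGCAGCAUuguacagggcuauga
miR-107: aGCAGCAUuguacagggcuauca
miR-30c-5p: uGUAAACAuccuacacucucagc
miR-30e-5p: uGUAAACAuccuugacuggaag
miR-30a-5p: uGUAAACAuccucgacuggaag
miR-221-3p: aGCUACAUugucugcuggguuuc
miR-222-3p: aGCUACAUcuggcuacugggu
let-7a-5p: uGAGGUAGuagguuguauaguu
let-7f-5p: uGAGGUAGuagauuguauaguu
let-7e-5p: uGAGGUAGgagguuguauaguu
let-7g-5p: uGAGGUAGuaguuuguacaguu
let-7c-5p: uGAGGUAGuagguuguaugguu
let-7b-5p: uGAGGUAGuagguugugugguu
miR-125b-5p: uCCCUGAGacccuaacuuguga
miR-125a-5p: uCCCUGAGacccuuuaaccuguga
miR-26a-5p: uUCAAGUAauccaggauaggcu
miR-26b-5p: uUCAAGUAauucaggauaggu
miR-301a-3p: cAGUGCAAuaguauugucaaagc
miR-454-3p: uAGUGCAAuauugcuuauagggu
miR-130b-3p: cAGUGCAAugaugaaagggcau
miR-301b-3p: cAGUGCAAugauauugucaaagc
miR-25-3p: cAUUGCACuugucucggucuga
miR-32-5p: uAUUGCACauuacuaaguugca
miR-92b-3p: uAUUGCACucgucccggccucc

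The members took 42.7% of the listed miRNA counts (interval 42.3% to 43.1%), against 56.0% for 8 miRNAs of the miR-17-92 cluster and 1.29% for the 2 arms of miR-3607. They also held 1.37 counts for each of the 18667 counts on the 122 snoRNA entries of the same table. Counts per member ran from 11 to 1872 with a median of 86. The table had no miRNA below 11 counts. In its snoRNA part, an entry was listed where each of the 3 libraries had above 10 counts (122 entries), although 161 entries exceeded that in library 1 alone. Whether the miRNA part was limited in the same way was not tested, so a miRNA that is not listed may still have had reads.

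Few members held most of the counts. The 5 with at least 1000 counts took 28.5%, the first 10 took 42.6% (interval 42.0% to 43.2%), and the first 14 held 51.7%. The 57 members with at least 100 counts took 87.8%, while the lowest 60 together took 8.75%. miR-16-5p led with 1872 counts (7.30%, interval 6.99% to 7.63%), followed by miR-103a-3p with 1797 (7.01%, 6.70% to 7.33%). Their intervals overlap, so their order is not resolved within counting error. miR-93-5p had 1287 counts, miR-30c-5p 1217 and miR-15b-5p 1122. miR-221-3p (788), miR-191-5p (752), miR-26a-5p (725) and let-7a-5p (708) followed. miR-191 is often used as a stable reference miRNA, and let-7a is a repressor of growth genes such as LIN28 and HMGA2. miR-106b-5p (656), miR-125b-5p (642), miR-222-3p (626), miR-301a-3p (534) and miR-378a-3p (525) came next. From miR-221-3p to miR-378a-3p each interval overlaps that of its neighbour. The lowest were miR-296-3p with 11 counts, miR-188-5p with 12, miR-96-5p with 13, and miR-138-5p and miR-28-5p with 14 each. Differences in how well each sequence is captured were not measured.

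**Figure D1:**
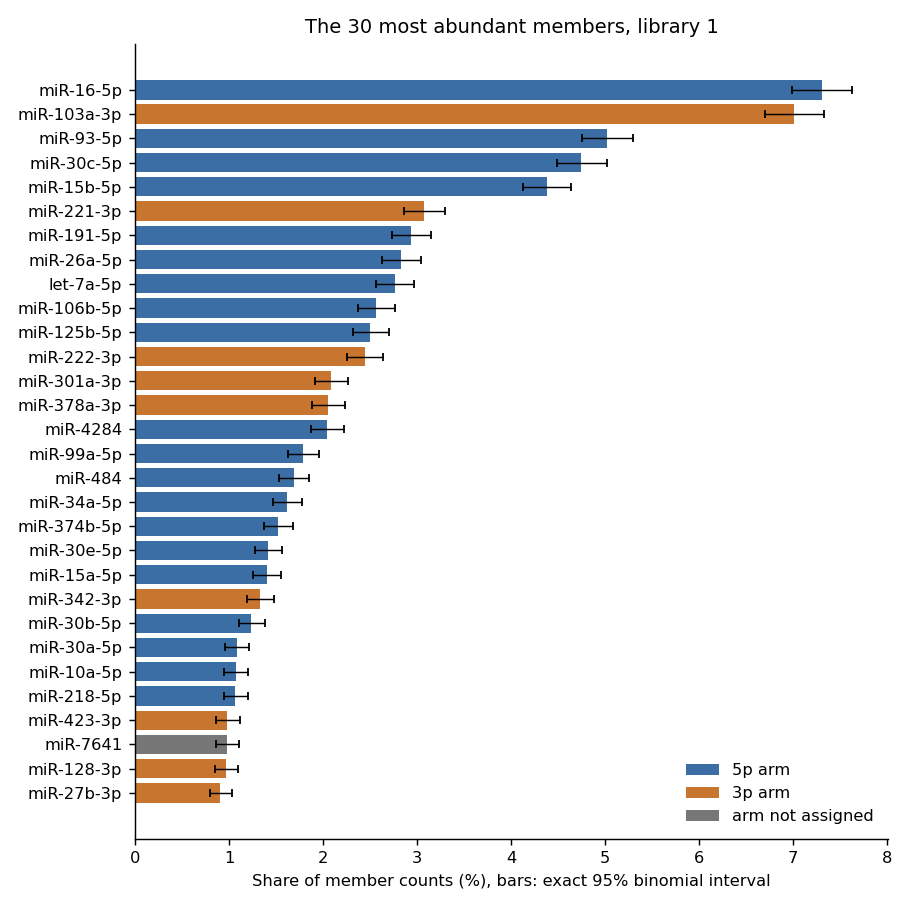
Horizontal bars give the share of member counts (%) of the 30 most abundant members in library 1, and error bars are exact 95% binomial intervals. Colours give the hairpin arm (blue 5p, orange 3p, grey not assigned). miR-16-5p (7.30%) and miR-103a-3p (7.01%) stand ahead of miR-93-5p (5.02%).

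By seed, the 115 members with a sequence fell into 84 groups, of which 19 had several members. These 19 families held 50 members and 67.1% of member counts. The miR-15/16 family, known as repressors of cyclins and BCL2, was first with 3378 counts (13.2%, interval 12.8% to 13.6%). It consisted of miR-16-5p, miR-15b-5p, miR-15a-5p with 359 counts and miR-424-5p with 25. The family of miR-93-5p, miR-106b-5p and miR-106a-5p had 2085 counts (8.13%, 7.80% to 8.48%). The pair miR-103a-3p and miR-107, which lie in introns of pantothenate kinase genes, had 1919 (7.49%, 7.17% to 7.82%). The miR-30 family had 1856 counts over miR-30c-5p, miR-30e-5p (362) and miR-30a-5p (277), which is 7.24% (6.93% to 7.56%). Counted by name it also includes miR-30b-5p (317) and miR-30d-5p (185) and then had 2358 counts (9.20%), which would place it second with the other families kept by seed. miR-221-3p and miR-222-3p, repressors of the cell cycle inhibitor CDKN1B, had 1414 (5.52%, 5.24% to 5.80%). The 6 let-7 members had 1201 (4.69%, 4.43% to 4.95%).

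Below these, the miR-125 family (642 and 228 counts for miR-125b-5p and miR-125a-5p) took 3.39% and the miR-26 family 2.94%. The family of miR-301a-3p, miR-454-3p, miR-130b-3p and miR-301b-3p took 2.85%, the miR-378 family 2.29% and the miR-99 family 2.15%. miR-4284 (524 counts), miR-484 (433) and miR-34a-5p (415) were the highest members with a seed of their own after miR-191-5p. miR-21-5p, abundant in many tumour lines, had 160 counts and shares its seed with miR-590-5p (134). miR-27b-3p and miR-27a-3p had 233 and 65, miR-148a-3p and miR-148b-3p 175 and 137, and miR-29b-3p, miR-29c-3p and miR-29a-3p 192, 72 and 47.

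**Figure D2:**
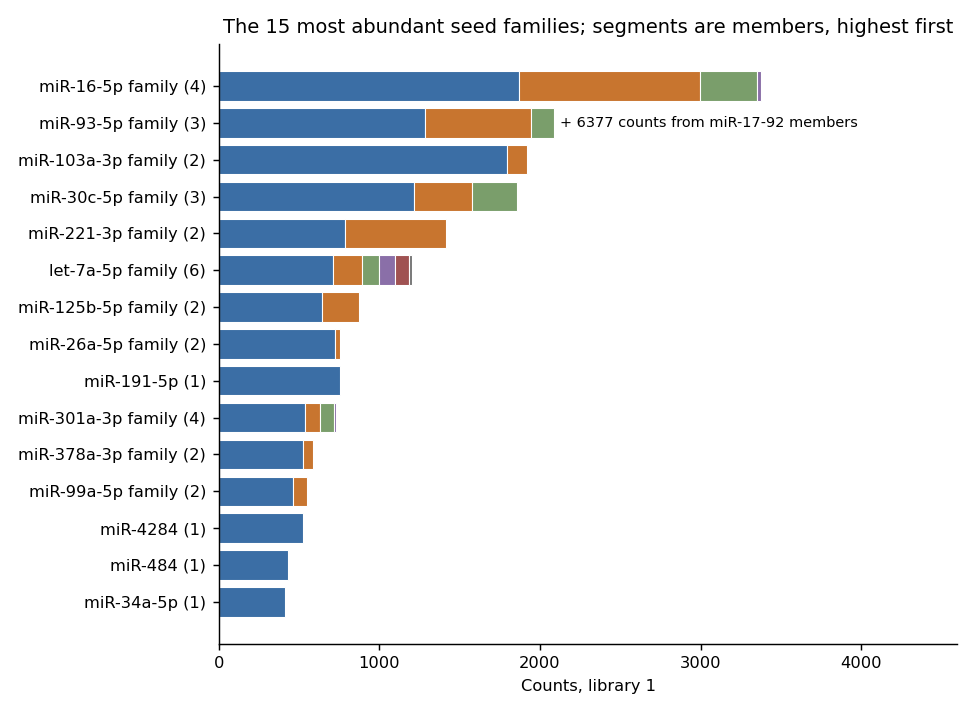
Horizontal bars give counts in library 1 of the 15 most abundant seed families, with the number of members in brackets and segments for the members from highest to lowest. The miR-16-5p family (3378 counts) is the longest bar, and the miR-93-5p family (2085) carries a label with the 6377 counts of the miR-17-92 members with the same seed.

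The members of the miR-17-92 cluster carry 6 different seeds, and 2 of these also occur among members. On the seed of miR-93-5p the 3 members had 2085 counts against 6377 for miR-17-5p and miR-20a-5p, 24.6% of that seed (interval 23.7% to 25.6%). On the seed of miR-25-3p (86 counts), miR-32-5p (53) and miR-92b-3p (49) the members had 188 counts against 416 for miR-92a-3p, 31.1% of that seed (27.5% to 34.99%). These 2 seeds made up 8.87% of member counts. miR-106a-5p and miR-17-5p differ by 1 base, so the 142 counts of miR-106a-5p depend on how reads of the 3062 counts of miR-17-5p were separated from it.

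The miR-17-92 cluster has a pair of paralogs. The miR-106b-25 cluster lies at chr7:100093560-100094074 (minus strand, GRCh38.p14) in an intron of MCM7, a gene of the replicative helicase. All 3 of its hairpins were listed, with 2065 counts (8.06%, interval 7.73% to 8.40%). miR-93-5p (1287) was 1.96-fold above miR-106b-5p (656; interval 1.78-fold to 2.16-fold) and 14.97-fold above miR-25-3p (12.0-fold to 18.8-fold). The minor arms miR-106b-3p and miR-93-3p had 19 and 17 counts. From the miR-106a-363 cluster on chromosome X, 4 names were looked for and 1 was listed, miR-106a-5p. miR-18b, miR-20b and miR-363 were not. miR-19b and miR-92a were left out of the members by name, so the locus of their reads was not examined.

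A locus was found for 120 of the 127 members. Clusters with the other members could not be seen, so the totals given here may be too low. Among the placed members, 21 genomic clusters, with gaps of at most 10 kb between hairpins on 1 strand, had at least 2 listed hairpins. They held 48.1% of member counts when the counts of a miRNA with several loci were split evenly over them. Such miRNAs were at least 18 members with 8385 counts (32.7%), and the files do not say from which locus their reads came. There may be more, since 12 members had no mature sequence in RefSeq. The miR-15b/16-2 cluster (chr3:160404588-160404825, plus strand, intron of SMC4) had 8.10% and the miR-15a/16-1 cluster (chr13:50048973-50049201, minus strand, intron of DLEU2) 5.05%. This split is set by the rule for miR-16, since counted in full at each locus they had 11.7% and 8.70%. miR-15b-5p and miR-15a-5p each come from 1 locus in the table, and miR-15b-5p was 3.13-fold higher (2.77-fold to 3.53-fold). The miR-221 and miR-222 cluster (chrX:45746157-45747124, minus strand, in MIR222HG) had 5.52%, with miR-221-3p 1.26-fold above miR-222-3p (1.13-fold to 1.40-fold).

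Other paralogous clusters also differed. For the miR-23/27/24 clusters, the chromosome 9 copy exceeded the chromosome 19 copy for both miRNAs that tell them apart. miR-23b-3p (117 counts) was 4.03-fold above miR-23a-3p (29; interval 2.67-fold to 6.29-fold), and miR-27b-3p was 3.58-fold above miR-27a-3p (2.71-fold to 4.79-fold). Each of these pairs differs by 1 base over the shorter sequence. Among the let-7, miR-99 and miR-125 groups, the let-7 and miR-125 members are relatives of the developmental timers let-7 and lin-4. There, miR-99a-5p on chromosome 21 (459) was 5.04-fold above miR-99b-5p on chromosome 19 (91, interval 4.02-fold to 6.39-fold). Their cluster partners went the other way by count, with 86 for let-7c-5p and 105 for let-7e-5p, but the interval of that ratio (0.609-fold to 1.10-fold) includes 1. So miR-99a-5p was 5.34-fold above let-7c-5p in 1 cluster of 823 bp, whereas miR-99b-5p and let-7e-5p were close in count. miR-125a-5p in the chromosome 19 cluster had 228.

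Members of 1 cluster often differed by several fold. miR-191-5p (752) exceeded miR-425-5p (157) 4.79-fold in the DALRD3 gene, and miR-374b-5p (390) exceeded miR-421 (97) 4.02-fold in FTX. miR-130b-3p (85) exceeded miR-301b-3p (16) 5.31-fold, and miR-503-5p (72) exceeded miR-424-5p (25) 2.88-fold. In the cluster of miR-183, miR-96 and miR-182, known from sensory cells, miR-182-5p had 82 counts, miR-183-5p 45 and miR-96-5p 13. In the Xp11 cluster 4 of 8 names were listed, miR-660-5p (91), miR-500a-5p (25), miR-362-3p (19) and miR-188-5p (12). miR-301a-3p (534) exceeded its paralog miR-301b-3p 33.4-fold (20.4-fold to 58.8-fold), miR-26a-5p exceeded miR-26b-5p (28) 25.9-fold (17.8-fold to 39.2-fold), and miR-103a-3p exceeded miR-107 (122) 14.7-fold (12.3-fold to 17.8-fold). miR-103a-3p and miR-26a-5p have 2 loci each in the table and miR-107 and miR-26b-5p 1. miR-181b-5p (102) and miR-181a-5p (92) could not be told apart by counting error (0.828-fold to 1.49-fold).

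**Figure D3:**
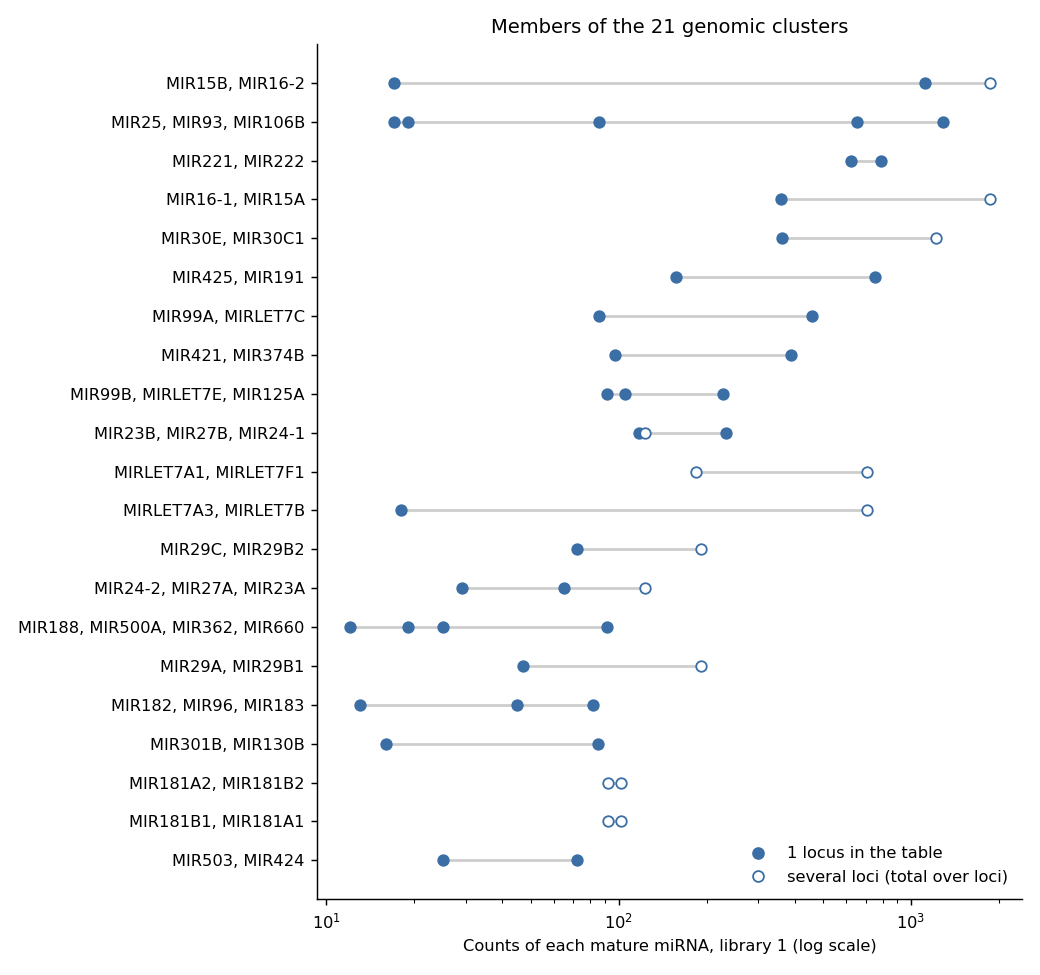
Each row is 1 of the 21 genomic clusters, ordered by counts, and each point is the count in library 1 of a mature miRNA (log scale). Open points are totals of miRNAs with several loci. The miR-106b-25 cluster (MIR25, MIR93, MIR106B) spans 17 to 1287 counts, whereas miR-221-3p and miR-222-3p lie close together at 788 and 626.

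An arm could be assigned to 124 members from 114 hairpins. Of these hairpins, 66 had only the 5p and 38 only the 3p strand listed, and 10 had both. The 5p strand led in 71 and the 3p strand in 43, and 5p strands took 68.5% of counts (interval 67.9% to 69.1%). Where both were listed, miR-93 had 98.7% of its counts on 5p, miR-15b (1122 and 17 counts) 98.5% and miR-106b 97.2%. miR-590 had 89.3% (134 and 16) and miR-361 72.7% (56 and 21). The 3p strand led in miR-378a with 525 counts against 43, in miR-126 with 175 against 45 and in miR-423 with 252 against 70. In miR-574 it had 37 counts against 20 and in miR-28 it had 17 against 14. The interval for the 5p share of miR-28 (27.3% to 64.0%) includes equal use, and that of miR-574 (22.9% to 48.9%) does not. Hence 3 of these 10 hairpins, miR-93, miR-15b and miR-106b, used 1 strand for over 95% of counts. The 31 counts of miR-28 were too few to tell which strand led.

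**Figure D4:**
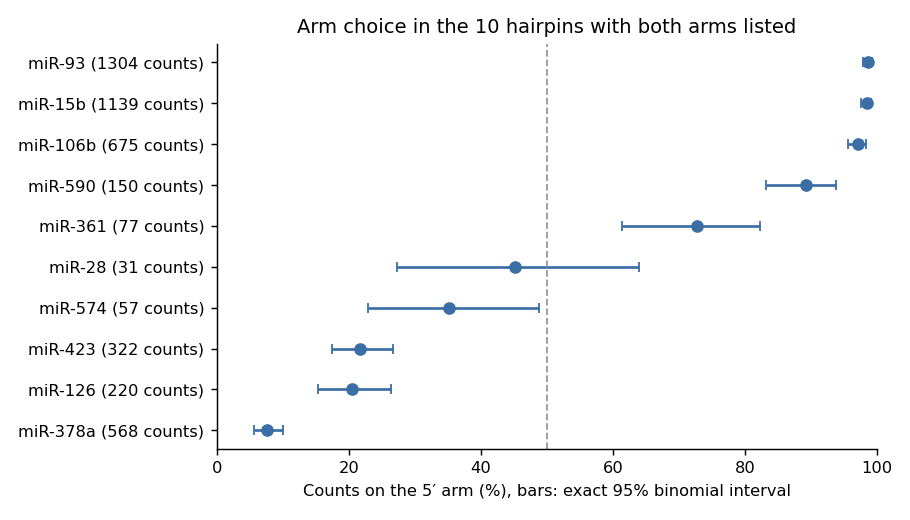
Points give the share of counts on the 5p arm (%) for the 10 hairpins with both arms listed in library 1, with exact 95% binomial intervals and a dashed line at equal use. miR-93, miR-15b and miR-106b sit at the right edge, miR-378a (7.57%) at the left, and the interval of miR-28 crosses the line.

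The first base of the listed strands played no part in choosing the members. Argonaute proteins are known to favour U or A at the 5′ end. Of the 115 members with a sequence, 64 begin with U (57.4% of their counts, interval 56.8% to 58.1%), 24 with A (25.1%), 18 with C (13.7%) and 9 with G (3.80%). For 89 hairpins RefSeq gave both strands, and where the other strand had several copies, the one first in order of name was used. There 57 of the leading strands begin with U (64.0%) against 16 of the other strands (17.98%). The other bases went the other way, with 15 leading strands against 26 other strands beginning with A, 11 against 37 with C and 6 against 10 with G. In the first 4 bases the leading strand held more A and U in 46 hairpins, the same in 26 and fewer in 17. Shown as examples are both strands of miR-106b, of which the leading 5p strand begins with U and the 3p strand with C, and both of miR-93, where the leading 5p strand begins with C and the 3p strand with A.
miR-106b-5p: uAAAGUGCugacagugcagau
miR-106b-3p: cCGCACUGuggguacuugcugc
miR-93-5p: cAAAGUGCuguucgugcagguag
miR-93-3p: aCUGCUGAgcuagcacuucccg

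Mature sequences were 18 to 25 nt long, 104 of them 21 to 23 nt. They lie at 135 loci in the table. On the strand of the miRNA, 76 loci lie in a protein-coding gene (GENCODE 29), 66 of them in introns only, and hold 61.3% of the placed counts with loci weighted evenly. Another 43 lie in non-coding genes (32.6%), 13 in no gene (2.99%) and 3 only opposite a gene (3.07%). Examples of intronic members are miR-16-5p at chr3:160404754-160404775 in SMC4, miR-30c-5p at chr1:40757300-40757322 in NFYC and miR-26a-5p at chr3:37969413-37969434 in CTDSPL. miR-484 (chr16:15643301-15643322, plus strand, in an exon of NDE1) and miR-34a-5p (chr1:9151735-9151756, minus strand, in an exon of MIR34AHG) are exonic. miR-484 is a miRNA whose precursor is made without Drosha, as is miR-320a (108), and miR-877-5p (17) is cut as a spliced intron. Of a list of 13 such names these 3 were listed, with 558 counts (2.18%).

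The origin of the reads of some entries is uncertain. The sequences of 6 of them are shown with the seed again in capitals. They are miR-4284 and miR-1246, which occur whole in another RNA, miR-1260b and miR-4454, which were on a list of doubtful names, and miR-7-5p and miR-3529-3p, which are complementary.
miR-4284: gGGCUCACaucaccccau
miR-1246: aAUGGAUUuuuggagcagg
miR-1260b: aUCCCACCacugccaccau
miR-4454: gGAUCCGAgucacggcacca
miR-7-5p: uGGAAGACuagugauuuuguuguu
miR-3529-3p: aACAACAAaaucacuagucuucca

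All 18 bases of miR-4284 (524 counts, rank 15, annotated at chr7:73711327-73711344 opposite STX1A) are also bases 49 to 66 of the 71 nt mitochondrial tRNA for phenylalanine (MT-TF). All 19 bases of miR-1246 (75 counts) are bases 94 to 112 of the U2 spliceosomal RNA (RNU2-1). Of the 115 sequences these 2 were found in full in a search of 5722 annotated small RNA transcripts, which hold no nuclear tRNA, and the other 113 were not. miR-1260b (109 counts), miR-4454 (85) and miR-7641 (250) have been described elsewhere as fragments of tRNA or rRNA. With miR-1246 they were the 4 listed of 18 names of doubtful origin, and together with miR-4284 they took 4.07% of member counts (1043 counts, interval 3.83% to 4.32%). Which RNA the reads came from was not tested. miR-3529-3p (77 counts, chr15:88611856-88611879, minus strand) is the exact reverse complement of miR-7-5p (61 counts). It lies opposite the MIR7-2 hairpin (chr15:88611825-88611934, plus strand). Without knowledge of the strand used in counting, reads of these 2 cannot be told apart. Their ratio (miR-7-5p over miR-3529-3p) had an interval of 0.557-fold to 1.12-fold, which includes equal counts. A further 11 pairs differ by 1 base, among them let-7a-5p with let-7c-5p, let-7e-5p and let-7f-5p, miR-103a-3p with miR-107, miR-30a-5p with miR-30e-5p and miR-29a-3p with miR-29c-3p. How reads were divided between such pairs is uncertain, and with it the ratios given for them.

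The label was compared with marker lists. These lists were chosen with earlier results of these data known, so the comparison cannot test the label. All 8 names of a HEK293 list were listed, with 1953 counts (7.62%), among them miR-378a-3p and miR-191-5p. The highest of them, miR-191-5p (752), is also often used as a stable reference miRNA. In it were miR-10a-5p (275), miR-10b-5p (114), miR-196b-5p (74) and miR-196a-5p (43), which lie within the HOX gene clusters. Of 36 names that mark other cell types in 10 lists, 3 were listed: miR-126, known from endothelium, and miR-128-3p (247) and miR-9-5p (44), known from neurons. They took 1.99% of member counts. The lists for erythroid, myeloid, lymphoid, liver, muscle, mesenchymal, epithelial and pluripotent cells had no listed name, so miR-451a, miR-223, miR-122, miR-145, miR-200c and miR-302a were not in the table. Nor was any of 42 names from the imprinted 14q32 region or of 35 from the primate chromosome 19 cluster. Of 6 names tied to p53, miR-34a-5p was listed. Of 7 names that overlap a snoRNA none was among the members, and 0 of the 135 member loci lie in an annotated snoRNA or scaRNA gene. The listed miR-3607, which comes from a snoRNA, was left out of the members beforehand. The look-up therefore does not describe all listed miRNAs.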

How the data were processed

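Small RNA of HEK293 cells was sequenced in 3 libraries of 1 group. The deposited table holds raw counts per miRNA and snoRNA, per the file headers and values. Per the submitters' processing notes the genome build was GRCh38.p10. For the aligner, trimming, strand setting, filters and miRNA annotation, nothing is given in the sources used here. Library 1 was the only one whose title matched a column, and 2 other columns of per-sample values were not used. For all 122 snoRNA entries its counts equal the sums of the deposited read files of library 1, whose read lengths (another deposited value) were not used.

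Members and lists were chosen with earlier results of these data known. Counts were used as deposited. Shares have exact (Clopper-Pearson) 95% intervals, and no test was run. The intervals were checked on counts simulated from the members' own shares. Coverage is built in there, so this does not show coverage for real reads. Seeds are bases 2 to 8 of RefSeq sequences (GRCh38.p14), clusters allow gaps of 10 kb, and hosts are from GENCODE 29. Alternatives were another seed, families by name, other denominators, gaps of 50 kb, other rules for several loci and a minimum of 100 counts. Named were the 20 highest and 5 lowest members, up to 4 per list or family, all hairpins with both arms, both miR-17-92 paralogs and entries of doubtful origin. The search of other small RNAs, the comparison of strand ends and paralog pairs outside this rule were chosen after values were seen. Software was SciPy 1.17.1, NumPy 2.4.6 and pandas 2.3.3 under Python 3.11.15, with matplotlib 3.10.9 for plots.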

Additional observations from a re-analysis of the deposited data

How the results depend on the processing

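Of 48 alternatives over 16 values, 19 stayed within the counting interval and 29 moved beyond it, none of them a tested call. The member share of 42.7% was 44.0% with miR-3607 kept and 39.6% among all listed miRNAs of at least 100 counts. It was 41.6% without the 5 entries of doubtful origin. The share of the first 10 members (42.6%) was 18.2% of all miRNA counts, 48.6% among members of at least 100 counts and 44.4% without those 5. Grouped by the number in the name, the families of miR-16-5p, miR-93-5p, miR-103a-3p, miR-30c-5p and miR-221-3p had 7.30%, 5.09%, 7.01%, 9.20% and 3.07%. Of all miRNA counts, the seed families of these and of let-7a-5p had 5.62%, 3.47%, 3.19%, 3.09%, 2.35% and 2.00%. The miR-15b/16-2, miR-15a/16-1 and miR-30e/30c-1 clusters had 11.7%, 8.70% and 6.16% with each copy counted in full, and 4.44%, 1.40% and 1.41% with members of several copies left out. The 5p share (68.5%) was 75.9% in hairpins with both arms listed, 62.3% with each hairpin counted once and 67.6% without the doubtful entries. The share beginning with U (57.4%) was 55.7% with each miRNA counted once, 58.1% at 100 counts or more and 59.4% without the doubtful entries. These settings change which entries are counted or the denominator. Leaving out those 5 entries was chosen after seeing the data. No paired analysis was possible because 1 library was used, and no replicate was left out for the same reason. The planned reading of snoRNAs that overlap members was not run, since no locus overlaps one. Members near the lowest count of 11 have wide intervals.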
